A study of Mus musculus with 8 samples.

Results

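Fatty acid oxidation was followed through 36 genes chosen by name: fatty acid transporters and acyl-CoA synthetases, the carnitine shuttle and its control, the enzymes of the mitochondrial cycle, the electron transfer proteins that serve it, a peroxisomal pair and acyl-CoA thioesterases. The deposited count table names a gene in 53921 rows, and each of the 36 genes was found there in 1 row. All 36 passed the filter on low counts and were among the 15324 genes tested. The cells were mouse induced cardiomyocytes, given as "Neo" in the labels, that is, cells turned toward a heart muscle fate by transcription factors. Every library came from cells that received MGT, the name in common use for Mef2c, Gata4 and Tbx5 given together. The comparison set 2 libraries of cells that also carried the shNT hairpin lentivirus (treatment MGT+shNT) against 2 that carried the shGrhl3 lentivirus (treatment MGT+shGrhl3), all on day 5. The H3K27ac CUT&Tag samples of the same hairpins, and the cardiac fibroblast RNA-seq that the series design mentions, were not analysed here.

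Long-chain fatty acids enter cells, are joined to coenzyme A by acyl-CoA synthetases, and cross into mitochondria as carnitine esters made by carnitine palmitoyltransferases of the Cpt1 type and opened again by Cpt2. Inside, repeated rounds of dehydrogenation, hydration, a further oxidation and thiolysis shorten the chain, and electrons from the first step pass through the electron transfer flavoprotein to ubiquinone. The adult heart draws most of its energy from this pathway, whereas fetal heart muscle and fibroblasts rely more on glucose.

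The libraries held 19257692 and 16104243 counts (shNT 1 and 2) and 19823397 and 18609743 counts (shGrhl3 1 and 2). Levels are given in CPM, the usual unit of counts scaled to sequencing depth, here also scaled for library composition, and they compare the same gene between libraries only, since they are not corrected for gene length. The targeted gene, Grhl3, a grainyhead-like transcription factor, had 31 and 14 counts in shNT and 11 and 19 in shGrhl3, which overlap (log2 fold change -0.69, SE 0.56, adjusted p = 0.362), so these counts do not check the hairpin label. Heart muscle marker genes were present, and 9 of 19 tested were higher and 2 lower in shGrhl3. Their summed level was 7922 and 7801 CPM in shNT and 8898 and 8573 CPM in shGrhl3. Macrophage and leukocyte markers moved the other way, with 10 of 11 tested lower (90.9%) and Csf1r alone higher. Their summed level was 670 and 921 CPM in shNT and 152 and 122 CPM in shGrhl3, and C1qb and C1qc had no count in either shGrhl3 library. Transcripts of the mitochondrial genome took 2.12% and 2.21% of counts in shNT and 2.49% and 2.52% in shGrhl3, and the ribosomal RNA gene Rn18s took 0.573% and 2.00% against 0.0959% and 0.156%. Whether the replicate libraries were separate cultures is not stated in the labels. The p-values therefore reflect the spread of these libraries alone, and that spread may be technical. In bulk RNA, fewer cells of a type and less RNA per cell cannot be told apart.

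In shGrhl3 cells, 12 of the 36 genes rose and 3 fell at an adjusted p below 0.05, and 21 did not pass. The rises were led by the mitochondrial thioesterase Acot2 (3.13-fold), the thiolase Acaa2 (1.74-fold), malonyl-CoA decarboxylase Mlycd (1.53-fold) and the acyl-CoA synthetase Acsl1 (1.399-fold). The genes that fell all belong to the entry of the pathway: the transporter Slc27a1 (0.519-fold), the rate-setting Cpt1a (0.638-fold) and the acyl-CoA synthetase Acsl5 (0.650-fold). The other 8 rises lay between 1.19-fold and 1.34-fold.

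Changed genes were common in this comparison: 35% of all genes tested were called, 17.1% as higher and 17.9% as lower. Against that background, 33.3% of the fatty acid oxidation genes were higher and 8.33% lower. The 36 genes were chosen with earlier results of these data known. Of 22 other mitochondrial genes of the pathway tested, 9.09% were higher and 18.2% lower. The median log2 fold change of the 36 genes was 0.22, beside -0.01 for all genes tested, and 27 of the 36 lay above 0. Both shGrhl3 libraries exceeded both shNT libraries for 21 genes (58.3%, against 32.8% of all genes tested) and lay below both for 7 (19.4%, against 33.7%). Summed over the 36 genes, the level was 1801 and 1826 CPM in shNT and 2026 and 1974 CPM in shGrhl3, a ratio of 1.10. Fewer of the 36 genes passed as higher without shNT 1, shNT 2 or shGrhl3 1, and over all genes tested fewer did so as well. The count of falls did not change. The median log2 fold change of the 36 genes was 0.20 without shNT 1, 0.19 without shNT 2, 0.20 without shGrhl3 1 and 0.21 without shGrhl3 2.

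**Figure D1:**
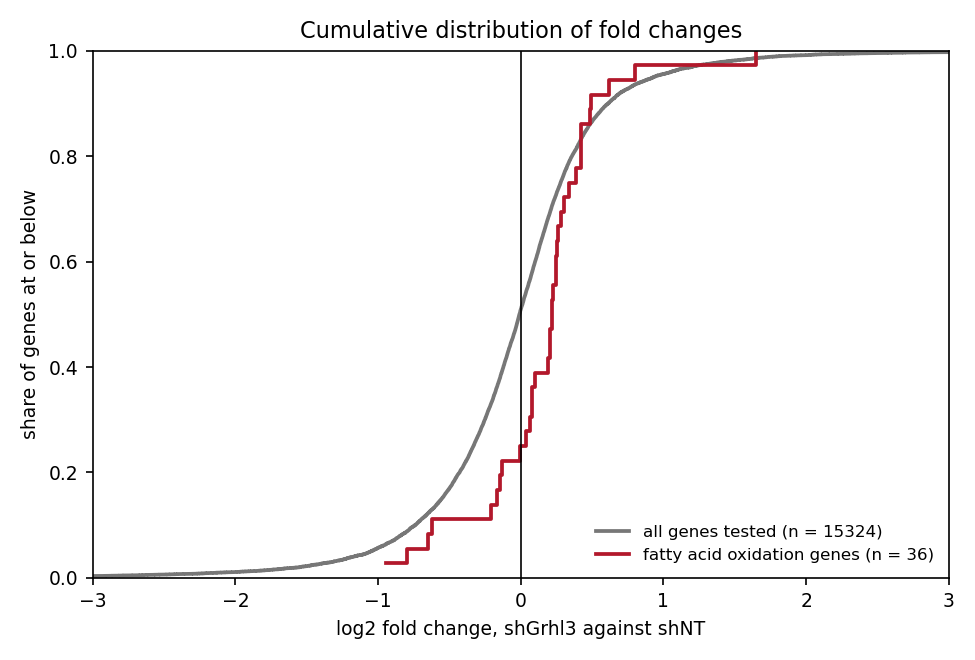
Share of genes (vertical axis) at or below each log2 fold change of shGrhl3 against shNT (horizontal axis) for the 36 fatty acid oxidation genes (red) and the 15324 genes tested (gray). The red steps lie to the right of the gray curve through the middle of the range, with medians of 0.22 and -0.01, while both tails of the gray curve reach farther out than most of the 36 genes.

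**Figure D2:**
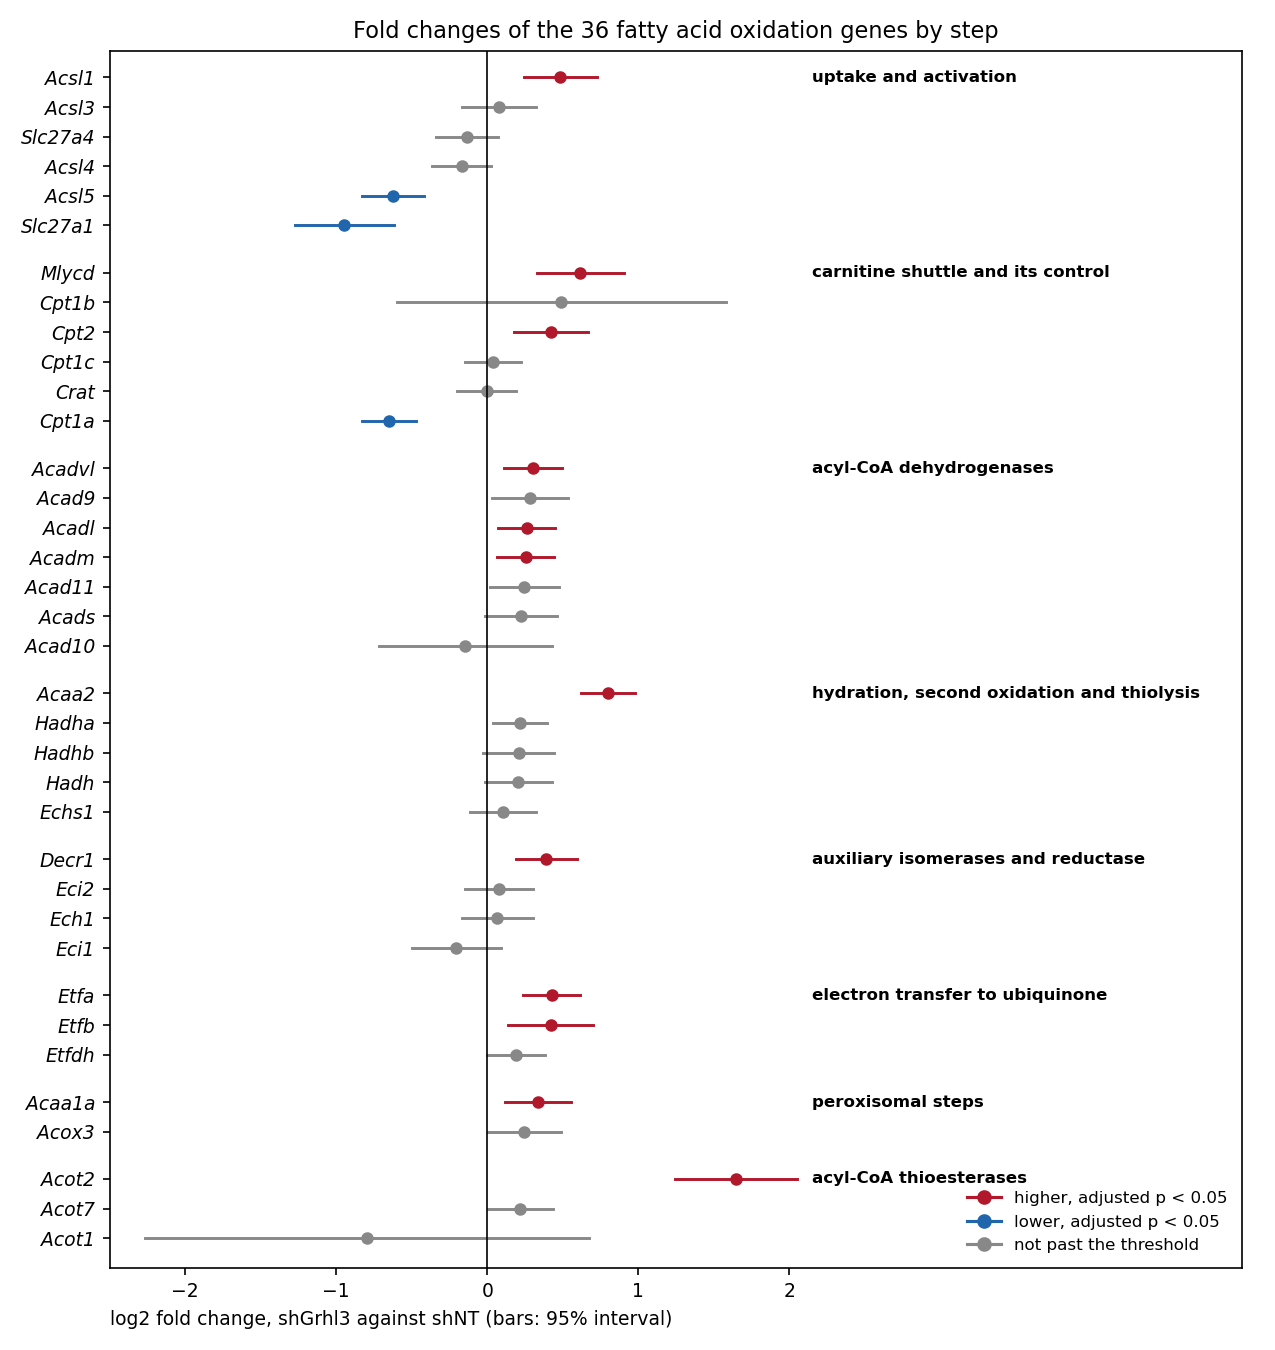
Log2 fold change of shGrhl3 against shNT (horizontal axis, bars 95% intervals) for each of the 36 fatty acid oxidation genes, ordered by step of the pathway. Genes past the threshold on the lower side are Slc27a1, Acsl5 and Cpt1a, in the uptake and carnitine shuttle groups, and the 12 on the higher side are spread over every group.

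Promoter sequence was looked at for the genes of this set because members moved in both directions. The RefSeq promoter table (GRCm38.p6, 250 bases before to 50 after a start) held 34 windows for 31 of the 36 genes, with none listed for Acaa2, Acad9, Cpt1b, Crat and Decr1. Below are the 250 bases upstream of the start in that table for the gene with the largest rise (Acot2), the gene whose enzyme removes malonyl-CoA (Mlycd), the electron transfer gene with the lowest p (Etfa), and the shuttle gene that fell (Cpt1a). Each is written 5′ to 3′ on the strand of the gene, and capitals mark a CCAAT box (CCAAT or ATTGG) or a GC box (GGGCGG or CCGCCC). The positions are chr12:83987611-83987860, plus strand, for Acot2, chr8:119394644-119394893, plus strand, for Mlycd, chr9:55512244-55512493, minus strand, for Etfa, and chr19:3323051-3323300, plus strand, for Cpt1a. For Cpt1a the whole stretch, and for Mlycd its last bases, lie inside the gene span of the annotation, which begins farther upstream.
Acot2: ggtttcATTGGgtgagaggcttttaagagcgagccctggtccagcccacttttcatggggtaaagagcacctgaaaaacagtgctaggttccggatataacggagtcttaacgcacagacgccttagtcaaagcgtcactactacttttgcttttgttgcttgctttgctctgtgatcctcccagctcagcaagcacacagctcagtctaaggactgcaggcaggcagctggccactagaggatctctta
Mlycd: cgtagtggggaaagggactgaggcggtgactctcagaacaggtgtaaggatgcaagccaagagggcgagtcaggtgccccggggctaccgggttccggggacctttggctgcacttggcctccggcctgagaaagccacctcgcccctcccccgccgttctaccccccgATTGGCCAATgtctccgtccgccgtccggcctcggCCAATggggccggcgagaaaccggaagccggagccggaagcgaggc
Etfa: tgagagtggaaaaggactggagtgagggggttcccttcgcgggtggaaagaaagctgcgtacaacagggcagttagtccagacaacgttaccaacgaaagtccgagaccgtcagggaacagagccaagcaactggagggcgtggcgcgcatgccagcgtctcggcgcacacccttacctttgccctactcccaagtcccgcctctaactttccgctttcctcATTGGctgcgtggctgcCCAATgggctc
Cpt1a: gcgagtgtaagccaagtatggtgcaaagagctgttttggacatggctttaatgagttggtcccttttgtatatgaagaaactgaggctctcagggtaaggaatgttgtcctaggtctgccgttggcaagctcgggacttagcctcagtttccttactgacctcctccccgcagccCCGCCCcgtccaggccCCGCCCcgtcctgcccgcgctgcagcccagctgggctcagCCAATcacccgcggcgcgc
The Acot2 stretch holds 1 CCAAT box and no GC box, and its GC content is 50.4%. Mlycd has 3 CCAAT boxes, a pair of them back to back, in a stretch of 67.6% GC. The Etfa stretch carries 2 CCAAT boxes near the start, in opposite directions. Cpt1a is the one of these 4 genes with GC boxes, 2 of them, followed by 1 CCAAT box.

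Over whole windows of all 31 genes, read on both strands, the GC box (GGGCGG) was found in 24 genes and in 73.5% of their windows, compared with 35.7% of the 32851 windows in the table. It stood in 5 of the 10 genes that rose and have a window, in 2 of the 3 that fell, and in 17 of the 18 that were not called. CCAAT, a motif added after the sequences had been seen, was found in 16 genes and in 50% of their windows, compared with 37.4% of all windows. It stood in 6 of the 10 genes that rose, in all 3 that fell and in 7 of the 18 others. The letters TCAAGGTCA, an extended site of the estrogen-related receptors, were in no window of these genes and in 0.423% of all windows. A same-direction pair of AGGTCA motifs 1 base apart, the type bound by PPAR-RXR dimers, was also in none, and in 0.0396% of all windows. A match or its absence in these windows is a description of the letters alone. TCAAGGTCA contains AGGTCA, and ATTGG can share G bases with GGGCGG.

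Uptake and activation held changes in both directions. The 6 genes of this group summed to 313 and 329 CPM in shNT and 270.5 and 274 CPM in shGrhl3, a ratio of 0.847. Of the 6, 1 was higher (16.7%, against 17.1% of all genes tested) and 2 were lower (33.3%, against 17.9%). Slc27a1 (chr8:71568728-71587307, GRCm38.p6, as for all gene spans here), a fatty acid transport protein with acyl-CoA synthetase activity, stood at 18.4 and 23.6 CPM in shNT and at 11.9 and 9.85 CPM in shGrhl3. Both shGrhl3 libraries were well below both shNT libraries (log2 fold change -0.95, SE 0.16, adjusted p = 5.28e-05). Acsl5 (chr19:55251861-55296628), an acyl-CoA synthetase of mitochondria and the endoplasmic reticulum, measured 100.4 and 114 CPM in shNT against 74.7 and 64.4 CPM in shGrhl3. Again the groups did not overlap (log2 fold change -0.62, SE 0.10, adjusted p = 2.93e-05). The macrophage and leukocyte markers fell in the same libraries, from a summed 670 and 921 CPM to 152 and 122 CPM, and their part in the lower uptake genes was not tested.

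Acsl1 (chr8:46471037-46536051), the main long-chain acyl-CoA synthetase of heart muscle, went the opposite way within the same enzyme family. It stood at 27.3 and 26.1 CPM in shNT and at 35.3 and 39.6 CPM in shGrhl3, with a clear gap between the groups (log2 fold change 0.48, SE 0.12, adjusted p = 0.00206). The sum of the heart muscle markers was also higher in both shGrhl3 libraries (ratio 1.11), as was that of the skeletal muscle markers (ratio 5.33). The part of such cells in the rise of Acsl1 was not tested. Acsl4, which prefers arachidonic acid, averaged 80.1 ± 0.358 CPM (SD, n = 2) in shNT and 71.2 ± 4.88 CPM in shGrhl3, without passing the threshold (log2 fold change -0.17, 95% interval -0.36 to 0.02, adjusted p = 0.171). The count ratio of Acsl1 to Acsl4 within a library, which no scaling touches, was 0.342 and 0.325 in shNT and 0.520 and 0.530 in shGrhl3. Its exact permutation p was 0.333, the smallest that 2 against 2 libraries can give, as for each ratio given here that did not overlap. Acsl3, a synthetase of lipid droplets and the endoplasmic reticulum, overlapped between groups (30.5 ± 0.753 against 32.2 ± 3.69 CPM, adjusted p = 0.655). Slc27a4, another fatty acid transport protein, was at 55.8 ± 0.537 and 50.8 ± 0.524 CPM and was not called (adjusted p = 0.315). Both shGrhl3 libraries lay below both shNT libraries, as for 33.7% of all genes tested. The ratio of Slc27a1 to Slc27a4 was 0.327 and 0.426 in shNT and 0.232 and 0.195 in shGrhl3.

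At the carnitine shuttle, Cpt1a fell and Cpt2 rose, while the other Cpt1 genes, Cpt1b and Cpt1c, did not pass. Cpt1a (chr19:3322326-3385735), the form of carnitine palmitoyltransferase widespread outside adult muscle, stood at 142 and 139 CPM in shNT and at 91.0 and 87.9 CPM in shGrhl3. The 2 libraries of each group lay close together and the groups far apart (log2 fold change -0.65, SE 0.09, adjusted p = 3e-06). Cpt2 (chr4:107903982-107923589), which restores the acyl-CoA inside the mitochondrion, was at 25.1 and 22.8 CPM in shNT and 33.0 and 31.3 CPM in shGrhl3. Its groups did not overlap either, in the other direction (log2 fold change 0.42, SE 0.12, adjusted p = 0.00737), although without shNT 2 the value was 0.36 with an adjusted p of 0.0802. Cpt1b, the muscle form of the enzyme, had few counts, with 29 and 10 counts in shNT and 21 and 38 in shGrhl3. These counts overlap (log2 fold change 0.49, 95% interval -0.60 to 1.58, adjusted p = 0.512), so the data do not exclude a rise or a fall within that interval. The count ratio of Cpt1b to Cpt1a was 0.0107 and 0.00454 in shNT and 0.0115 and 0.0231 in shGrhl3, where shNT 1 and shGrhl3 1 cannot be told apart within counting error (95% intervals 0.00713 to 0.0154 and 0.00711 to 0.0176). The difference of 1.23 on the log2 scale was 0.61 without shNT 2 and 0.73 without shGrhl3 2. Leaving out shNT 1 gave 1.84.

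Mlycd (chr8:119394852-119421838) breaks down malonyl-CoA, the inhibitor of Cpt1 enzymes. Its level was 13.0 and 12.8 CPM in shNT and 20.1 and 19.4 CPM in shGrhl3. This was a difference many times the spread within either group (log2 fold change 0.62, SE 0.14, adjusted p = 0.00137). Crat, carnitine acetyltransferase, which buffers acetyl-CoA, averaged 76.8 ± 5.00 CPM in shNT and 76.7 ± 2.01 CPM in shGrhl3 (95% interval of the log2 fold change -0.20 to 0.19). Cpt1c, a form known from neurons and the endoplasmic reticulum, was at 91.9 ± 4.58 and 94.1 ± 0.328 CPM (95% interval -0.15 to 0.22). Neither passed the threshold. Over the 6 genes of the shuttle and its control, the sums were 351 and 343 CPM in shNT and 317 and 310 CPM in shGrhl3, a ratio of 0.904.

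The acyl-CoA dehydrogenases, which open each round of oxidation for chains of a given length, changed little in size, by 1.19-fold to 1.23-fold where called. Of 7 genes, 3 rose (42.9%, against 17.1% of all genes tested) and 6 had both shGrhl3 libraries above both shNT libraries (85.7%, against 32.8%). Their sum was 356 and 339 CPM in shNT and 419.6 and 413 CPM in shGrhl3, a ratio of 1.20. Acadvl, the very-long-chain enzyme, was at 65.1 and 64.5 CPM in shNT and 81.7 and 78.3 CPM in shGrhl3 (log2 fold change 0.30, SE 0.09, adjusted p = 0.0134). Acadl, the long-chain enzyme, was at 120.5 and 106 CPM in shNT and 139 and 132 CPM in shGrhl3 (log2 fold change 0.26, SE 0.09, adjusted p = 0.0276). Acadm, the medium-chain enzyme, was at 73.5 and 73.0 CPM in shNT and 89.8 and 85.0 CPM in shGrhl3 (log2 fold change 0.25, SE 0.09, adjusted p = 0.0342). In all 3 the groups were separate, but each call was lost without some single libraries, where fewer libraries were left to test. The log2 fold change of Acadvl was 0.31 without shNT 1 and 0.30 without shNT 2, and that of Acadm 0.26 and 0.25. For Acadl it was 0.35 without shNT 1, 0.17 without shNT 2 and 0.22 without shGrhl3 1. Without shNT 2 the adjusted p was 0.104 for Acadvl, 0.372 for Acadl and 0.185 for Acadm, and without shNT 1 it was 0.0974 for Acadvl and 0.178 for Acadm. Without shGrhl3 1 it was 0.0701 for Acadl and 0.119 for Acadm. DESeq2 did not call Acadm (adjusted p = 0.0584).

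The remaining dehydrogenases did not pass. Acads, the short-chain enzyme, averaged 27.9 ± 1.06 CPM in shNT and 32.6 ± 2.21 CPM in shGrhl3 (adjusted p = 0.144). Acad9, also an assembly factor of respiratory complex I, was at 27.04 ± 3.59 and 33.0 ± 0.591 CPM (adjusted p = 0.0722), and it passed without shNT 1 (adjusted p = 0.0353). Acad11 was at 37.0 ± 3.10 and 43.9 ± 2.70 CPM (adjusted p = 0.0886). Acad10 overlapped between groups (4.13 ± 0.301 and 3.74 ± 0.771 CPM, adjusted p = 0.731). The ratio of Acadvl to Acadl counts was 0.540 and 0.609 in shNT and 0.586 and 0.593 in shGrhl3, with overlap (exact permutation p = 1).

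The later reactions of each round were led by Acaa2, the mitochondrial ketoacyl-CoA thiolase that cleaves off acetyl-CoA. It was at 90.4 and 90.1 CPM in shNT and at 157.3 and 156.6 CPM in shGrhl3. Libraries of a group were nearly equal, and the difference between groups had the lowest p of the 36 genes (log2 fold change 0.80, SE 0.09, adjusted p = 1.42e-07). Hadha and Hadhb encode the alpha and beta subunits of the trifunctional protein, which handles long chains, and they are neighbors on chromosome 5 (chr5:30119423-30154980 and chr5:30155253-30184593, GRCm38.p6). Hadha was at 144 and 161 CPM in shNT and 181 and 174 CPM in shGrhl3 (log2 fold change 0.22, SE 0.09, adjusted p = 0.0545). Hadhb was at 29.3 and 29.0 CPM in shNT and 33.3 and 34.1 CPM in shGrhl3 (log2 fold change 0.21, SE 0.11, adjusted p = 0.163). Neither subunit passed. Both shGrhl3 libraries exceeded both shNT libraries in each, as they did for 32.8% of all genes tested. Hadha passed without shGrhl3 2 (adjusted p = 0.0166) and missed without each of the other libraries in turn. With all 4 libraries it also passed with RLE size factors (adjusted p = 0.049), with scaling by library size only (0.0327) and with limma-voom (0.0479). The Hadhb to Hadha count ratio was 0.203 and 0.180 in shNT and 0.184 and 0.196 in shGrhl3, with overlap (exact permutation p = 1). Hadh, the hydroxyacyl-CoA dehydrogenase for shorter chains, was at 36.4 ± 0.057 and 41.9 ± 1.70 CPM (adjusted p = 0.147). Echs1, the short-chain enoyl-CoA hydratase, was at 46.8 ± 4.34 and 50.2 ± 2.35 CPM (adjusted p = 0.496). Of the sum of these 5 genes, 344 and 366 CPM in shNT and 466 and 454 CPM in shGrhl3, Acaa2 made up most of the difference between groups.

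Unsaturated chains need auxiliary enzymes, and of 4 such genes Decr1 alone passed. Decr1, mitochondrial dienoyl-CoA reductase, was at 52.5 and 48.5 CPM in shNT and 66.5 and 65.9 CPM in shGrhl3. The groups were well separated (log2 fold change 0.39, SE 0.10, adjusted p = 0.00314), and without shNT 2 the value was 0.34 with an adjusted p of 0.0667. The isomerases Eci1 (19.1 ± 1.06 and 16.6 ± 2.53 CPM, adjusted p = 0.283), Eci2 (41.2 ± 1.48 and 43.5 ± 4.03 CPM, adjusted p = 0.628) and Ech1 (32.4 ± 3.01 and 33.9 ± 0.237 CPM, adjusted p = 0.693) did not pass, in each case with shNT given first.

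Among the genes of electron transfer to ubiquinone, transcripts of both subunits of the flavoprotein were higher. Etfa (chr9:55454436-55512243) was at 74.9 and 77.1 CPM in shNT and 104 and 100.3 CPM in shGrhl3 (log2 fold change 0.43, SE 0.09, adjusted p = 0.000689). Etfb was at 18.0 and 21.9 CPM in shNT and 28.9 and 24.2 CPM in shGrhl3 (log2 fold change 0.42, SE 0.14, adjusted p = 0.0185). For either subunit both shGrhl3 libraries exceeded both shNT libraries, as for 32.8% of all genes tested. The Etfb to Etfa count ratio was 0.240 and 0.283 in shNT and 0.278 and 0.241 in shGrhl3 (exact permutation p = 1). Etfb was the less firm of the pair. Its log2 fold change was 0.28 without shNT 1 (adjusted p = 0.231) and 0.29 without shGrhl3 1 (adjusted p = 0.177), and DESeq2 did not call it (adjusted p = 0.0809). Etfdh, the dehydrogenase that passes these electrons to ubiquinone, averaged 71.5 ± 1.22 CPM in shNT and 81.5 ± 3.11 CPM in shGrhl3, without passing (adjusted p = 0.118).

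In peroxisomes, which shorten very long and branched chains, Acaa1a and Acox3 were the 2 genes of the set. Acaa1a, the peroxisomal thiolase, has a close copy, Acaa1b, and the split of reads between them is uncertain. It was at 50.2 and 51.9 CPM in shNT and 70.0 and 58.7 CPM in shGrhl3. Its shGrhl3 libraries differed from each other by more than the gap to the nearest shNT library (log2 fold change 0.34, SE 0.10, adjusted p = 0.0145). The adjusted p was 0.104 without shNT 1, and 0.191 without shGrhl3 1, where the log2 fold change was 0.20. Acox3, an acyl-CoA oxidase of branched chains, was at 30.3 ± 1.35 and 35.98 ± 3.84 CPM and did not pass (adjusted p = 0.107), except without shGrhl3 1 (adjusted p = 0.0401).

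The thioesterases, which release free fatty acids from coenzyme A, held the largest rise. Acot2 (chr12:83987861-83993877), the mitochondrial form, had 82 and 69 counts in shNT and 249 and 274 in shGrhl3, or 4.28 and 4.34 CPM against 12.4 and 14.7 CPM. The groups lay far apart beside the spread within each (log2 fold change 1.65, SE 0.20, adjusted p = 6e-07). Acot1, its cytosolic neighbor on chromosome 12 and a close paralog, had 13 and 12 counts in shNT and 13 and 3 in shGrhl3 (adjusted p = 0.421). The handling of reads shared by both paralogs is not known here, so the split between them is uncertain. The Acot2 to Acot1 ratio was 6.31 and 5.75 in shNT and 19.2 and 91.3 in shGrhl3. The last value rests on 3 Acot1 counts, with a 95% counting interval of 30.9 to 446, and the log2 difference of 2.80 was 1.67 without shGrhl3 2 and 3.92 without shGrhl3 1. Acot7, a cytosolic thioesterase abundant in brain, was at 45.5 ± 4.45 and 52.9 ± 1.48 CPM (adjusted p = 0.111).

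**Figure D3:**
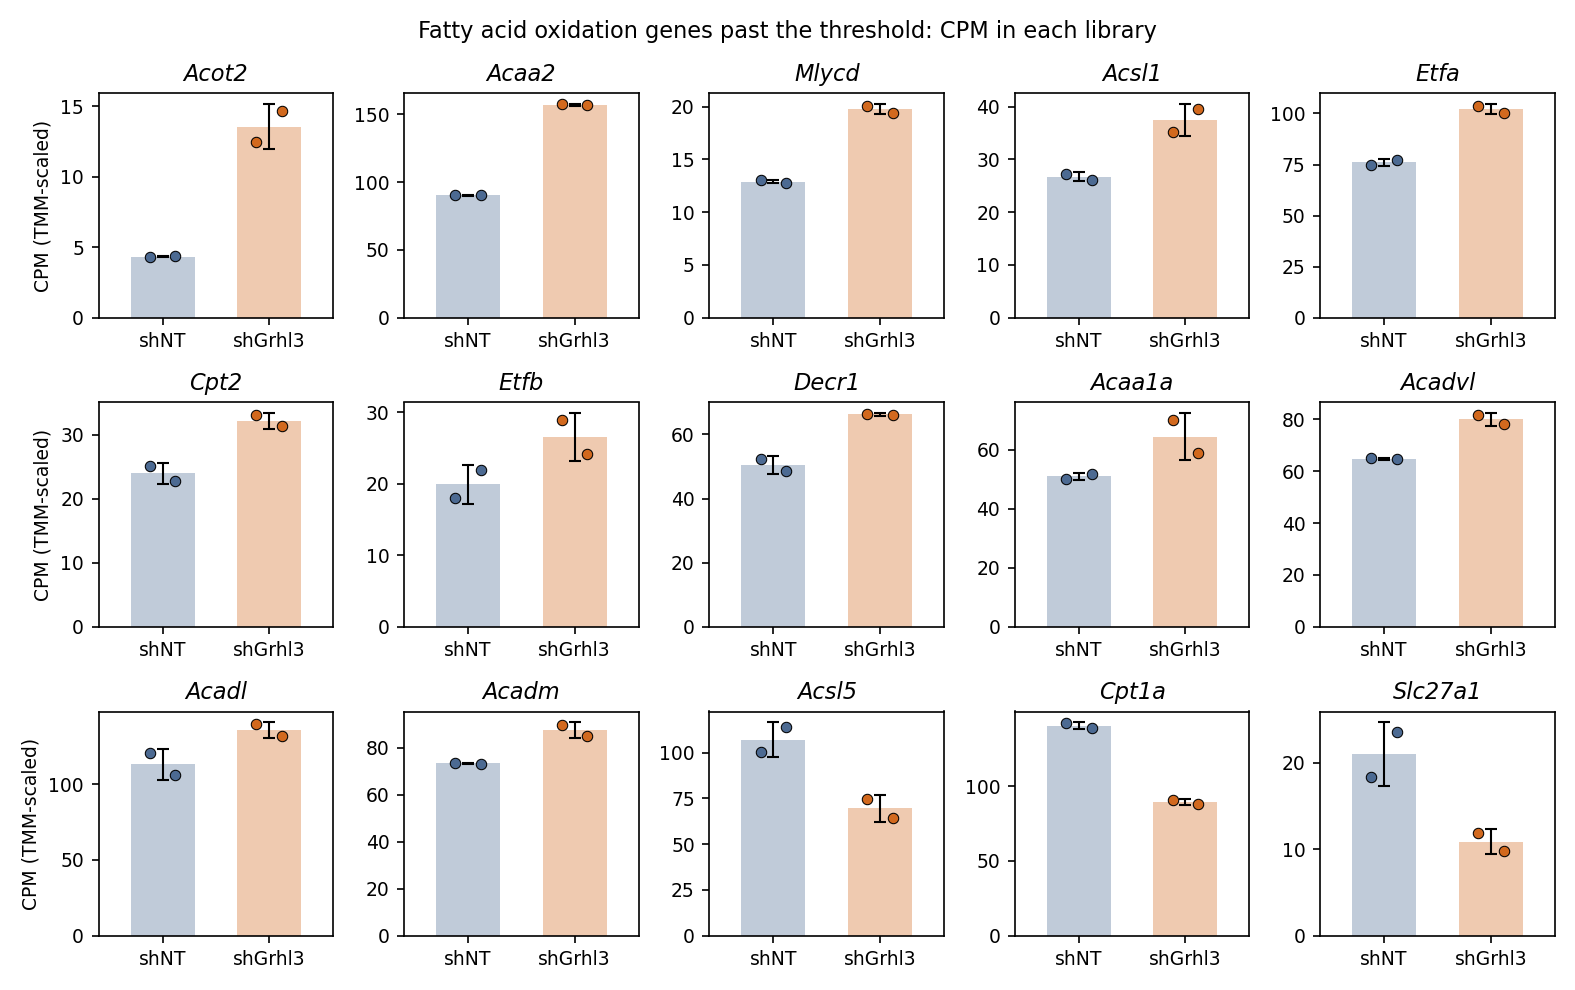
CPM of the 15 fatty acid oxidation genes past the threshold, with a point for each library, a bar at the mean of the 2 libraries of a group and an error bar of 1 SD. The panels were chosen by that threshold, and the libraries of the groups do not overlap in any of them. Of all genes tested, 32.8% had both shGrhl3 libraries above both shNT libraries, and 33.7% had both below. The widest gap relative to level is that of Acot2, at 4.28 and 4.34 CPM in shNT and 12.4 and 14.7 CPM in shGrhl3.

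Of the transcriptional regulators of fatty acid oxidation listed, 20 were tested. Of these, 6 rose (30%, against 17.1% of all genes tested) and 2 fell (10%, against 17.9%). The PGC-1 coactivators, which raise mitochondrial gene expression, were low but higher in shGrhl3. Ppargc1a had 13 and 6 counts in shNT and 50 and 37 in shGrhl3 (log2 fold change 2.05, SE 0.51, adjusted p = 0.00296). Ppargc1b was at 2.93 and 2.39 CPM in shNT and 6.38 and 7.33 CPM in shGrhl3 (log2 fold change 1.36, SE 0.26, adjusted p = 0.000257). Of the estrogen-related receptors, their partners on mitochondrial genes, Esrra and Esrrg rose too, while Esrrb was not among the regulators called higher. Esrra was at 34.8 and 36.5 CPM in shNT and 55.0 and 48.1 CPM in shGrhl3 (log2 fold change 0.53, adjusted p = 0.000461), and Esrrg went from 6.41 ± 0.197 to 11.5 ± 0.0296 CPM (adjusted p = 0.000907). Pparg, the fat cell member of the peroxisome proliferator-activated receptors, rose from 2.13 ± 0.608 to 5.20 ± 0.296 CPM (adjusted p = 0.00177). Of 10 adipocyte marker genes listed, only Pparg and Fabp4 had enough counts to be tested. In that list 3 genes (Cidec, Retn and Cfd) had no count in any library. The remaining regulator that rose was Rxra, the retinoid X receptor partner of PPARs (log2 fold change 0.38, adjusted p = 0.00345). Gabpa, a factor of nuclear genes for respiratory chain subunits, fell from 78.8 ± 2.16 to 43.5 ± 3.92 CPM (adjusted p = 4.68e-07), as did Klf15, a regulator of cardiac lipid use (log2 fold change -0.76, adjusted p = 0.0135). Ppara, the receptor best known for driving fatty acid oxidation, was at 1.62 and 1.64 CPM in shNT and 0.848 and 1.77 CPM in shGrhl3, overlapped and was not called (adjusted p = 0.644). Rxra lost the threshold without shNT 1 (adjusted p = 0.103). Klf15 lost it without shNT 2 (adjusted p = 0.183), without shGrhl3 2 (0.0969) and with DESeq2 (0.0852).

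Genes that PPARs are known to induce did not move as a block. Of 10 tested outside the 36 genes, 5 rose (50%, against 17.1% of all genes tested) and 4 fell (40%, against 17.9%). Txnip, an inhibitor of glucose uptake, went from 273 ± 6.25 to 621 ± 30.0 CPM (adjusted p = 1.29e-10), and the lipid droplet coat gene Plin2 from 87.0 ± 1.56 to 112 ± 6.08 CPM (adjusted p = 0.00271). Fgf21, a metabolic hormone, rose from 0.121 ± 0.0966 to 1.16 ± 0.0515 CPM (adjusted p = 0.00241), though not without shNT 1 (adjusted p = 0.0624). Pdk4, the kinase that closes pyruvate entry to the mitochondrion, fell from 20.3 ± 1.94 to 11.7 ± 0.217 CPM (adjusted p = 0.000155). The other named falls, Cd36 and Fabp4, belong to fatty acid uptake.

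Fatty acid uptake, binding and lipid droplet genes were mixed, with a median log2 fold change of -0.10. Of 20 tested, 5 were higher (25%, against 17.1% of all genes tested) and 7 lower (35%, against 17.9%). Cd36, the main fatty acid translocase of heart, fat and macrophages, was at 59.8 and 85.0 CPM in shNT and 2.39 and 1.66 CPM in shGrhl3, the largest change among these lists (log2 fold change -5.14, SE 0.21, adjusted p = 6.16e-10). Fabp4, a fatty acid binding protein of adipocytes, endothelium and macrophages, fell from 7.49 ± 2.32 to 1.18 ± 0.452 CPM (adjusted p = 1.13e-06), and its relative Fabp5 from 49.6 ± 2.84 to 34.6 ± 5.43 CPM (adjusted p = 0.00122). Both Cd36 and Fabp4 were higher in shNT 2 than in shNT 1, as was the macrophage and leukocyte marker sum (670 and 921 CPM, against 152 and 122 CPM in shGrhl3), whose part in these falls was not tested. Slc27a6, the transport protein of this family known from heart, fell from 2.36 ± 0.578 to 0.460 ± 0.196 CPM (adjusted p = 0.00119). In the other direction, Mgll, the lipase that finishes triglyceride breakdown, rose from 19.4 ± 0.438 to 43.7 ± 4.96 CPM (adjusted p = 7.76e-08). Got2, known both as mitochondrial aspartate aminotransferase and as a fatty acid binding protein of the plasma membrane, rose from 144 ± 2.35 to 196 ± 1.41 CPM (adjusted p = 0.000181).

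**Figure D4:**
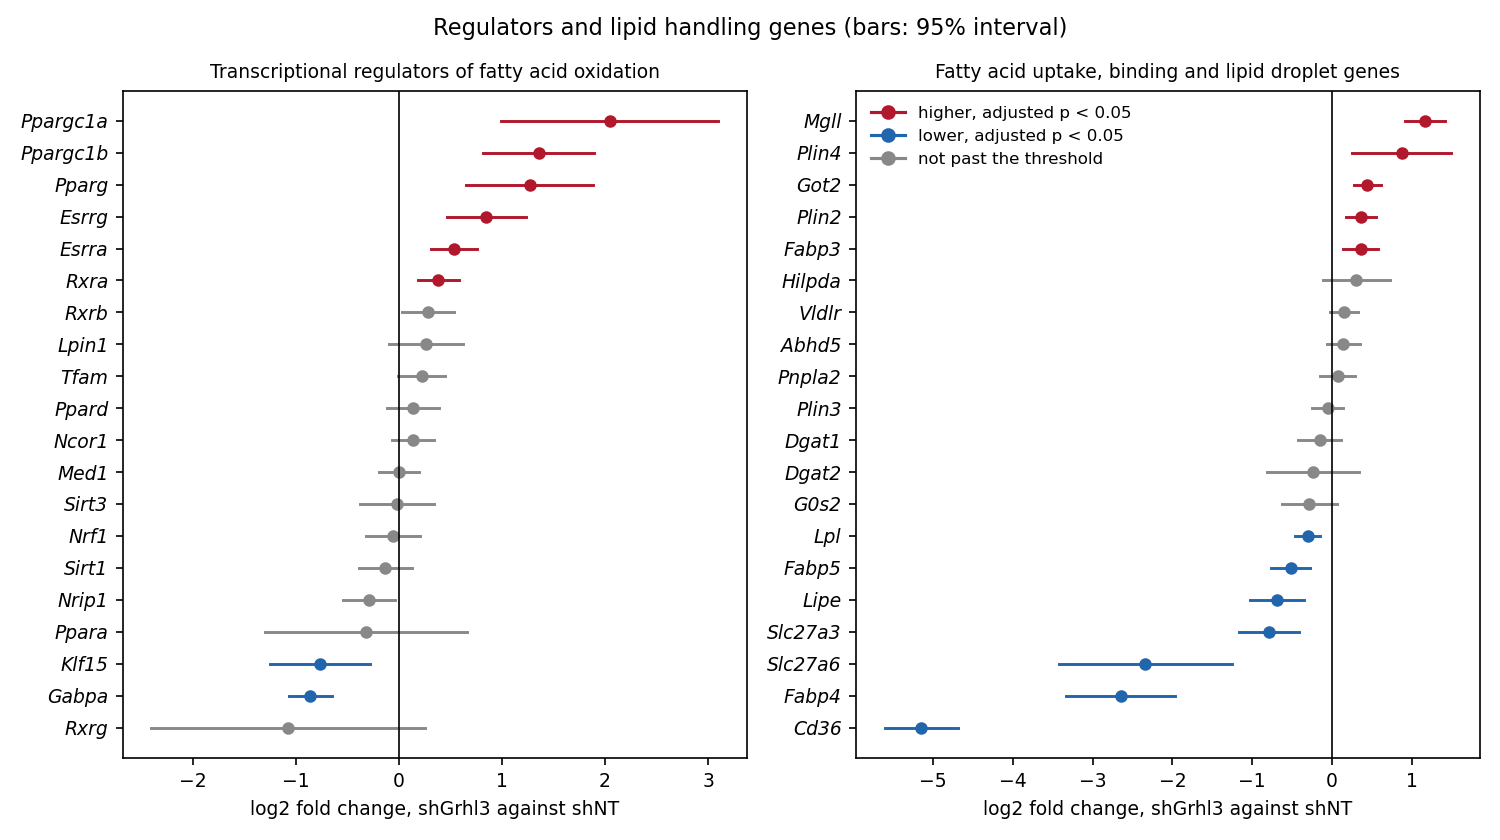
Log2 fold change of shGrhl3 against shNT with 95% intervals for 20 transcriptional regulators (left) and 20 uptake, binding and lipid droplet genes (right). Ppargc1a, Ppargc1b, Pparg, Esrrg, Esrra and Rxra lie above 0 with intervals that exclude it, Ppara spans 0, and Cd36 at -5.14 lies farthest from 0.

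Of 22 other mitochondrial genes of the pathway tested, 2 rose (9.09%, against 17.1% of all genes tested) and 4 fell (18.2%, against 17.9%), with a median log2 fold change of 0.01. Slc25a20, the carnitine-acylcarnitine carrier that works between Cpt1 and Cpt2, averaged 29.6 ± 3.16 CPM in shNT and 29.4 ± 0.755 CPM in shGrhl3 (adjusted p = 0.987). Dbi, the acyl-CoA binding protein, fell from 93.8 ± 7.46 to 42.6 ± 2.91 CPM (adjusted p = 6.86e-09). Acot11, another thioesterase, fell from 10.1 ± 0.0883 to 5.58 ± 0.133 CPM (adjusted p = 0.0015), and the acyl-CoA synthetase Acsf2 and the branched-chain dehydrogenase Acadsb fell by 0.51 and 0.25 on the log2 scale (adjusted p = 0.0177 and 0.028). The genes that rose were Acat1, the acetoacetyl-CoA thiolase (log2 fold change 0.63, adjusted p = 1.86e-05), and Pccb, a propionyl-CoA carboxylase subunit (0.49, adjusted p = 0.000503). The call was lost for Acsf2 without shNT 2 (adjusted p = 0.31) and with DESeq2 (0.106), and for Acadsb without shNT 1, shNT 2 or shGrhl3 2 (adjusted p = 0.114, 0.201 and 0.179), with DESeq2 (0.0669) and with the replicate block (0.0602).

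In the list of peroxisomal genes outside the 36, 4 of 22 were higher (18.2%, against 17.1% of all genes tested) and 5 lower (22.7%, against 17.9%). Phyh, which starts the breakdown of phytanic acid, fell from 16.9 ± 0.0432 to 10.8 ± 0.977 CPM (adjusted p = 0.00176), and Crot, carnitine octanoyltransferase, from 57.8 ± 1.37 to 45.1 ± 2.11 CPM (adjusted p = 0.00765). Abcd2, a peroxisomal acyl-CoA importer, had 20 and 25 counts in shNT and 4 and 0 in shGrhl3 (adjusted p = 0.0018). Scp2, which carries the thiolase for branched chains, rose from 165 ± 8.82 to 217 ± 3.05 CPM (adjusted p = 0.000755). Abcd4 rose from 17.6 ± 0.510 to 25.4 ± 3.44 CPM (adjusted p = 0.00333). It was listed here for its family with Abcd2, not as a known peroxisomal importer. Without shNT 1 Crot lost the threshold (adjusted p = 0.0723), as did Abcd4 without shGrhl3 1 (adjusted p = 0.0654).

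Malonyl-CoA links synthesis to oxidation, and AMPK lowers it. Of 14 genes of this control, 5 rose (35.7%, against 17.1% of all genes tested) and 1 fell (7.14%, against 17.9%), with a median of 0.19. Acly, which supplies cytosolic acetyl-CoA, rose from 166 ± 2.55 to 226 ± 6.29 CPM (adjusted p = 0.000184). Prkaa2, the AMPK catalytic subunit prominent in muscle, rose from 42.2 ± 5.47 to 61.7 ± 14.1 CPM (adjusted p = 0.0102), Cab39, a cofactor of the AMPK-activating kinase, from 143 ± 11.97 to 190.3 ± 1.34 CPM (adjusted p = 0.000643), and the muscle subunit Prkag3 from 0.953 ± 0.279 to 2.53 ± 0.127 CPM (adjusted p = 0.014). Acacb, the acetyl-CoA carboxylase of the mitochondrial surface, was at 2.73 ± 0.651 and 3.73 ± 0.361 CPM and did not pass (adjusted p = 0.281). Fasn, fatty acid synthase (log2 fold change 0.28, adjusted p = 0.0406), and the AMPK subunit Prkab2 (-0.23, adjusted p = 0.0483) were near the threshold. Fasn lost it without shNT 1, shNT 2 or shGrhl3 2 (adjusted p = 0.200, 0.0589 and 0.418) and with DESeq2 (0.0547), and Prkab2 in 9 of the 12 alternatives. Prkag3 lost it without shNT 2 (adjusted p = 0.102) and with DESeq2 (0.0726).

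Of 15 fatty acid synthesis and desaturation genes, 3 were higher (20%, against 17.1% of all genes tested) and 6 lower (40%, against 17.9%), with a median of -0.20. The elongases Elovl1 (114 ± 6.81 to 49.95 ± 0.313 CPM, adjusted p = 1.26e-09), Elovl5 (58.6 ± 2.55 to 32.5 ± 0.966 CPM, adjusted p = 9.34e-07) and Elovl6 (14.6 ± 0.341 to 7.96 ± 1.57 CPM, adjusted p = 0.000427) fell. So did the desaturase Fads2 (53.8 ± 4.17 to 34.9 ± 3.73 CPM, adjusted p = 0.000116) and malic enzyme Me1, a source of NADPH (92.6 ± 1.91 to 70.9 ± 7.19 CPM, adjusted p = 0.00291). Of 6 ketone body genes, 3 rose (50%) and 1 fell (16.7%). Slc16a1, a carrier of lactate and ketone bodies, rose from 56.3 ± 2.53 to 128 ± 11.9 CPM (adjusted p = 1.87e-09), as did Acat1, given above. Bdh2, a hydroxybutyrate dehydrogenase, fell from 3.85 ± 0.345 to 1.55 ± 0.981 CPM (adjusted p = 0.012). The log2 fold change of Bdh2 was -1.30, but -2.16 without shGrhl3 1 and -0.75 without shGrhl3 2, where its adjusted p was 0.142, and DESeq2 did not call it (adjusted p = 0.0625).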

How the data were processed

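The deposited RNA-seq table gives raw counts for each gene in 4 libraries. These counts are whole numbers to which, as far as the values show, the authors applied no normalization. Tools named for the series, per the submitters' processing notes, are HISAT2 2.0.1, Bowtie2 2.2.6, cutadapt 1.9.1, ChIPseeker and MACS2, with mm10 as the genome. For the counting program, annotation, strand setting and multiply mapped reads, the settings were "not given in the sources used here", so paralogs and overlapping genes are uncertain. The hairpin columns carry the names shGrhl1 and shGrhl2 and were read as replicates 1 and 2 of shGrhl3, the only target the labels name. Of 55359 rows, 1438 name no gene (0.00432% to 0.00872% of counts per library) and were left out.

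All genes were fitted together in edgeR 4.0.16 under R 4.3.3, with filterByExpr at a minimum count of 10, TMM scaling, robust quasi-likelihood F-tests without covariates, two-sided, Benjamini-Hochberg adjustment over 15324 genes, threshold 0.05. The SE comes from the F statistic, CPM uses TMM-scaled library sizes, and ± is the SD over 2 libraries. Replicates differed by more than sampling noise (chi-square per degree of freedom 14.1 for shNT and 8.66 for shGrhl3). These values include Rn18s, with 110296 and 322261 counts in shNT and 19008 and 28963 in shGrhl3. Its share of them was not worked out, so they do not rank the groups by noise. Data were simulated for 2 against 2 libraries on 15259 genes, with the same dispersion for every gene. Among genes with many counts, 100 of 100 changed by 1 on the log2 scale were recovered and 50 of 100 changed by 0.5, with 6 false calls. Real genes differ in dispersion, and far more of them were called. Genes with few counts, such as Cpt1b and Acot1, were not among those changed, so recovery for them is not known. Count ratios within libraries were compared by an exact permutation test. Alternatives were DESeq2 1.42.0, limma-voom (limma 3.58.1), other scalings and filters, summed repeated symbols, a replicate block, and leaving out each library.

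Every one of the 36 genes is named, with each library's value for those past the threshold and for Cpt1b, Hadha and Hadhb. From each other gene list, up to 6 genes past the threshold with the lowest p are named, plus Ppara, Slc25a20 and Acacb whatever their result. Rxra and Klf15 were named after their values were seen, to complete a small count, and so was the choice of the 4 promoters shown. A few genes selected this way enter the counts but are not reported here by name. Genes of the set were left out of the other lists. The members and lists were chosen with earlier results of these data known. Of the marker lists, those of cardiac fibroblasts (1 of 12 tested higher, 6 lower), endothelium (0 of 9 higher, 2 lower), smooth muscle (1 of 8 higher, 2 lower), skeletal muscle (3 of 4 higher), epithelium (3 of 5 higher) and adipocytes (Pparg higher and Fabp4 lower of 2 tested) were also read. Over all genes tested, 17.1% were higher and 17.9% lower. Gene spans and promoters are from RefSeq on GRCm38.p6, the assembly of mm10.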

Additional observations from a re-analysis of the deposited data

How the results depend on the processing

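The count of fatty acid oxidation genes that fell was 3 under all 12 alternatives. The count that rose was 12, and between 10 (DESeq2) and 13 with all 4 libraries; leaving out 1 library gave 7 to 13. Of the 15 called genes, 8 passed in every alternative run (Slc27a1, Acsl1, Acsl5, Cpt1a, Mlycd, Acaa2, Etfa and Acot2), 7 lost the threshold in at least 1, and none changed sign. With the replicate block, 11 rose and 3 fell, and Acadm was lost (adjusted p = 0.0714). The shared numbers do not show a pairing: deviations of same-numbered libraries correlated at -0.06 across genes. Over all genes tested, 5368 were called, 4889 with the replicate block, 3896 by DESeq2, and 3878 to 5057 without 1 library. Where an arm keeps 1 library, that library is assumed to vary like the other group.

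Sign changes of fold changes were confined to genes not called. Crat became 0.0023 with RLE size factors, 0.022 with library size only, 0.00083 with no expression filter and 0.010 with DESeq2. Slc25a20 became 0.0025, 0.022, 0.00062 and 0.0089 under the same settings and 0.0046 with limma-voom. Leaving out 1 library at a time moved Crat between -0.066 and 0.063, Slc25a20 between -0.11 and 0.11, Acsl3 between -0.023 and 0.19, Cpt1b between -0.038 and 1.27, Cpt1c between -0.017 and 0.087, Acad10 between -0.35 and 0.055, Eci2 between -0.021 and 0.19, Ech1 between -0.028 and 0.16, and Ppara between -0.92 and 0.12. The cause was not tested.

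Of the count ratios, those that overlapped between groups changed sign without single libraries: Acadvl to Acadl (log2 difference -0.05 to 0.13), Hadhb to Hadha (-0.10 to 0.08) and Etfb to Etfa (-0.13 to 0.11). The ratio of Acsl1 to Acsl4 stayed between 0.62 and 0.69, and that of Slc27a1 to Slc27a4 between -1.003 and -0.62. Of the 45 called genes followed outside the set, for which the alternatives were chosen after seeing the data, 12 lost the threshold in at least 1 and none changed sign. With 2 libraries a group, rises near 1.2-fold are at the limit of what could be called, and Cpt1b and Acot1 have too few counts to read a change.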
